A study of Danio rerio with 6 samples.

Results

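The enzymes that break down and build amino acids, move one-carbon units and assemble purines were examined in whole zebrafish larvae with and without a microbiota. Members were taken by gene symbol from the platform annotation, with a fixed symbol pattern that covers threonine, aromatic, branched-chain and sulfur amino acid catabolism, transamination, the urea cycle, polyamines, creatine, folate enzymes and purine synthesis. The pattern found 65 probesets of 55 genes among 15502 tested probesets. Of these, 4 probesets belong to 3 genes that are no enzymes of these pathways: cth1, a zinc finger RNA-binding protein, and cthrc1a and cthrc1b, secreted collagen triple helix repeat proteins. They match by spelling alone. Relatives of the enzymes, such as ahcyl1 and got1l1, match as well. The enzymes alone are 53 probesets of 46 genes. All larvae were of strain C32, were reared under gnotobiotic conditions and were sampled whole at 6 days post-fertilization. The colonized larvae (labelled ex-germ-free conventionalized) were germ-free up to day 3 and carried a conventional zebrafish microbiota from then to day 6, and the germ-free larvae had none. Each group had 3 replicate pools of 28 to 80 larvae, with 1 array per pool, so that a value is an average over many animals and all their tissues. In such bulk samples, fewer cells of a type and less RNA per cell cannot be told apart.

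Amino acids that are not needed for protein are degraded mainly in the liver, where aminotransferases pass the nitrogen to glutamate and specific pathways handle the carbon skeletons. Threonine dehydrogenase and glycine C-acetyltransferase turn threonine into glycine and acetyl-CoA in mitochondria, a route that supplies glycine and, through it, one-carbon units. The methionine cycle transfers methyl groups through S-adenosylmethionine, and betaine-homocysteine methyltransferase returns homocysteine to methionine with a methyl group that comes from choline. Glycine, glutamine, aspartate and formyl groups carried by folate are among the building blocks of the purine ring.

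In colonized larvae, 3 of the 55 genes were called higher and 0 lower: the threonine dehydrogenase gene tdh, the methyltransferase gene bhmt on both of its probesets, and paics, which encodes a bifunctional enzyme of purine synthesis. A probeset was called changed where the adjusted p of the limma fit over all 15502 probesets was under 0.05. The mean intensity of tdh was 1.96 times that of germ-free larvae, that of bhmt 1.47 and 1.58 times, and that of paics 1.66 times. These 4 called probesets are 6.15% of the members, or 5.45% with 1 probeset per gene. The symbol pattern, which names tdh and paics, was chosen with earlier results of these data known, so this share is no independent result. Among all tested probesets 1.28% were called higher, 0.413% lower and 1.7% in either direction. The members were brighter as a group: 52 of 65 had a mean intensity of at least 100, against 7216 of 15502 probesets. In a fit on those probesets alone, 5 members were called higher. Of all 7216, 171 were called higher and 3.16% in either direction. At an unadjusted p under 0.05, 15 member probesets were higher and 4 lower, or 23.1% and 6.15%, beside 8.54% and 4.68% of all tested probesets. In 16 members every colonized pool lay above every germ-free pool, in 7 every colonized pool lay below, and in 42 the groups overlapped. The shares of 24.6% and 10.8%, or 35.4% together, stand beside 12.5%, 7.08% and 19.6% of all tested probesets. The log2 change was above 0 in 48 of 65 members (73.8%; 55.2% of all tested probesets), and its median was 0.12, against 0.02 over all tested probesets. Log2 changes are on the scale of log2(intensity + 32), colonized minus germ-free. Most members thus differed by little, and the 10th to 90th percentile of their changes ran from -0.21 to 0.39. Without cth1, cthrc1a and cthrc1b the calls were again 4 higher and 0 lower, of 61 probesets. Among the enzymes alone they were also 4 higher and 0 lower, of 53 probesets. Of the 2 cthrc1b probesets 1 lay higher and 1 lower in all colonized pools (log2 changes 0.21 and -0.22, adjusted p = 0.394 and 0.364), and cth1 and cthrc1a overlapped.

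**Figure D1:**
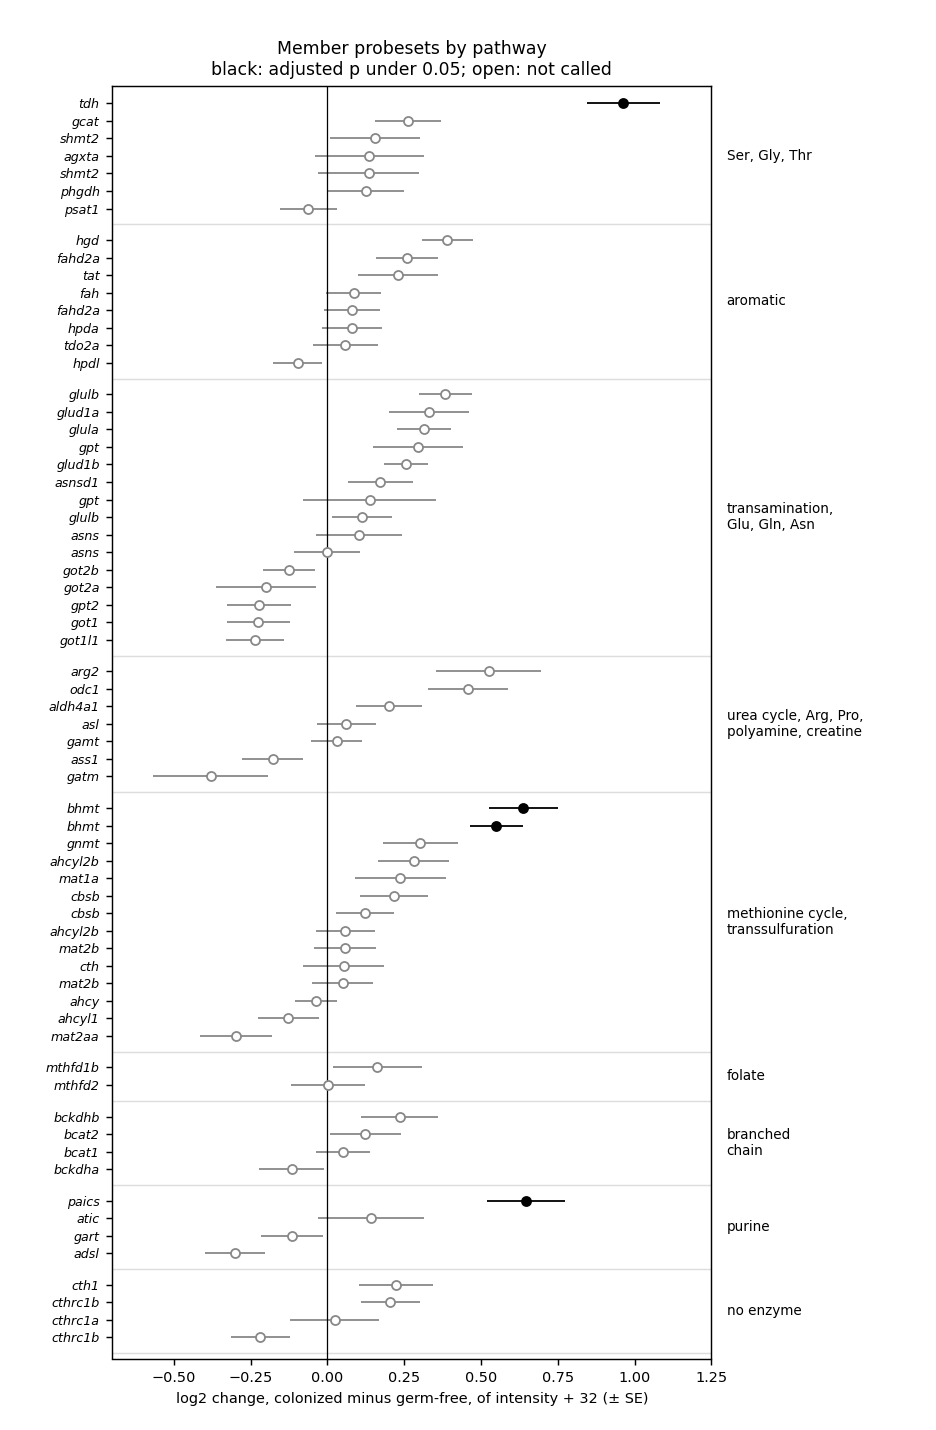
Log2 change of each of the 65 member probesets, colonized minus germ-free, on the scale of log2(intensity + 32), with bars for ± SE from the limma fit on 3 pools per group; rows are probesets, grouped by pathway and labelled with the gene symbol. The filled points, tdh, bhmt on 2 probesets and paics, are the called ones and lie at 0.55 to 0.96, and the open points, not called, lie between -0.38 and 0.53.

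**Figure D2:**
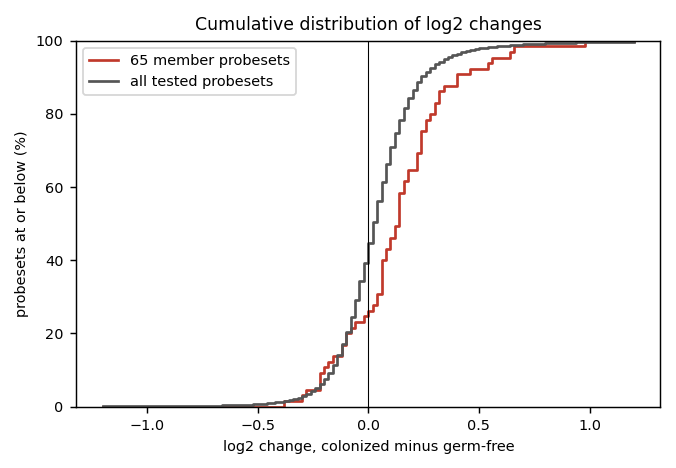
Cumulative share of probesets (vertical axis, percent) at or below each log2 change, colonized minus germ-free (horizontal axis), for the 65 member probesets and for all 15502 tested probesets, the members included. The member curve lies to the right of the other over its middle part, with medians of 0.12 and 0.02. Near -0.2 the member curve lies above the other, with 10.8% against 7.59% of probesets at or below -0.2.

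The arrays differed within the groups, and a control ratio differed between the groups. The median deviation of the members from their own means over the 6 arrays was 0.13 on the log2 scale in colonized replicate 3, against 0.003 and 0.03 in colonized replicates 1 and 2 and -0.02, -0.08 and -0.05 in germ-free replicates 1, 2 and 3. Colonized replicate 3 was the highest of its group in 37 of 65 members (56.9%), as it was in 44.7% of all tested probesets. Germ-free replicate 3, whose array number in the labels is out of run with the other 5, had the lowest mean correlation with its own group, 0.977. Array medians lay between 85.97 and 93.8. The acta1 control probesets read opposite ends of 1 transcript, and RNA breakdown raises the signal at its 3' end relative to its 5' end; this ratio, in log2, lay at 2.79 to 3.00 for the colonized and 2.35 to 2.64 for the germ-free pools. These ranges do not overlap, so the ratio moves with every change described here; its part in them was not tested.

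Of the genes of serine, glycine and threonine metabolism, 1 of 6 was called, tdh. Its intensity was 2435, 2309.7 and 2149.6 in colonized pools, against 1124, 989 and 1409.9 in germ-free pools. All colonized pools lay well above all germ-free pools, and germ-free replicate 3 was the highest of its group. The group means were 2298 ± 143 in colonized and 1174 ± 215 in germ-free pools (SD, n = 3 each), with a log2 change of 0.96 ± 0.12 SE, adjusted p = 0.00243. On leaving out any 1 array the change was called each time, at 0.85 to 1.099 with adjusted p-values of 7.45e-05 to 0.0232. The next enzyme of the route, glycine C-acetyltransferase gcat, had 195, 199 and 245 in colonized pools, against 162, 179 and 173 in germ-free pools. The gcat groups did not overlap either, but the change was not called (log2 change 0.26 ± 0.11 SE, adjusted p = 0.329). The 2 probesets of shmt2, the mitochondrial serine hydroxymethyltransferase that converts serine and glycine into each other, overlapped between the groups, with log2 changes of 0.15 and 0.13. The enzymes of serine synthesis, phgdh and psat1, had 0.12 and -0.06, and the alanine-glyoxylate aminotransferase agxta 0.14, with adjusted p-values of 0.721 to 0.825. Of 7 other measured genes of this pathway, among them subunits of the glycine cleavage system, 0 were called and 0 reached an unadjusted p under 0.05; their log2 changes were 0.04 to 0.21.

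**Figure D3:**
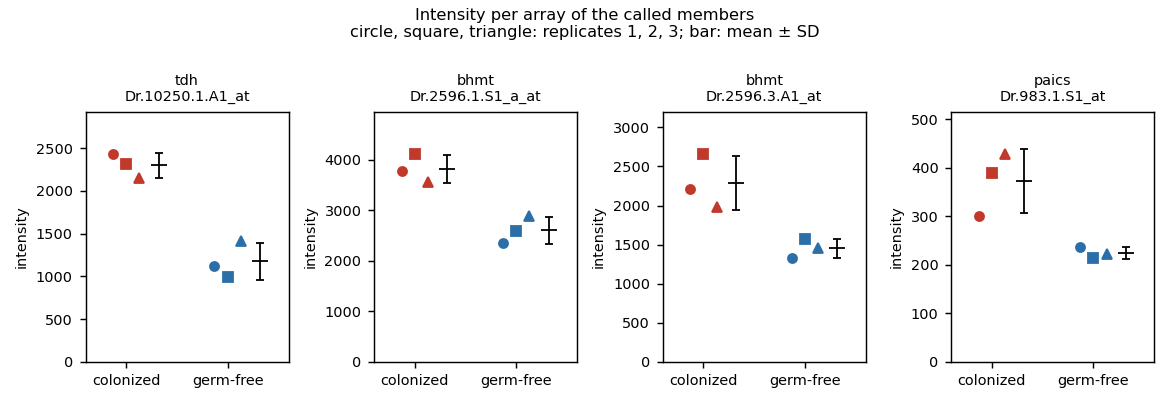
Intensity (vertical axes, linear scale from 0) of the 4 called member probesets in each array, colonized pools on the left and germ-free pools on the right of each panel, with symbols for replicates 1 to 3 and bars for the mean ± SD. In each panel all 3 colonized pools lie above all 3 germ-free pools; tdh averages 2298 in colonized and 1174 in germ-free pools.

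Of the genes of the methionine cycle and transsulfuration, the relatives ahcyl1 and ahcyl2b included, 1 of 10 was called, bhmt. Its brighter probeset had 3775, 4118 and 3564 in colonized pools, against 2349, 2582 and 2875 in germ-free pools. Its other probeset had 2211, 2665 and 1985 in colonized pools, against 1329, 1570.0 and 1452 in germ-free pools. On both, colonized replicate 2 was the highest and all colonized pools lay above the germ-free ones. The log2 changes were 0.55 ± 0.09 SE, adjusted p = 0.00998, and 0.64 ± 0.11 SE, adjusted p = 0.0172. The 2 probesets share a cluster number in their identifiers, so they do not count as separate evidence. The first was not called without colonized replicate 1 or 2 (adjusted p = 0.0522 and 0.0776), and the second without colonized replicate 1 or 2 or germ-free replicate 1 (0.0738, 0.0852 and 0.081) or after quantile normalization (0.0613).

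The other enzymes around bhmt were not called, and their log2 changes lay on both sides of 0. The glycine N-methyltransferase gnmt, which uses up S-adenosylmethionine, had 445, 488 and 558 in colonized pools, against 373, 359 and 461 in germ-free pools, with an overlap between colonized replicate 1 and germ-free replicate 3 (log2 change 0.30 ± 0.12 SE, adjusted p = 0.323). The methionine adenosyltransferases make S-adenosylmethionine: mat1a, in mammals the liver form, had a log2 change of 0.24 ± 0.15 SE and mat2aa -0.30 ± 0.12 SE. The values of mat2aa were 567, 675 and 627 in colonized pools, against 813, 659 and 855 in germ-free pools, so that its groups overlapped (adjusted p = 0.302). The ahcy gene, whose enzyme hydrolyses S-adenosylhomocysteine, averaged 2329 ± 82.3 in colonized and 2389.6 ± 103 in germ-free pools (SD, n = 3 each), with a log2 change of -0.04 ± 0.07 SE. The transsulfuration enzymes cbsb, with 0.22 and 0.12, and cth, with 0.05, were not called. On the brighter cbsb probeset, with 0.22, all colonized pools lay above all germ-free pools (adjusted p = 0.442). Of the ahcy-like genes, 1 of 2 ahcyl2b probesets had 231, 224 and 261 in colonized pools, against 214, 197 and 163 in germ-free pools, without overlap but not called (0.28, adjusted p = 0.331); the other had 0.06. The regulatory subunit gene mat2b had 0.06 and 0.05 on 2 overlapping probesets, and ahcyl1 -0.13. Of 7 other measured genes of sulfur amino acid metabolism 1 was called higher, sqor, the mitochondrial oxidoreductase that oxidises hydrogen sulfide. It had 251, 281 and 282 in colonized pools, against 195, 182 and 153 in germ-free pools (log2 change 0.55 ± 0.11 SE, adjusted p = 0.0363). Its call was lost on leaving out any array other than germ-free replicate 3, with adjusted p-values of up to 0.206.

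Of 4 genes of purine synthesis, paics was called and gart, atic and adsl were not. The paics probeset had 300.3, 390.1 and 429 in colonized pools, against 237, 214 and 223 in germ-free pools. The 3 germ-free pools lay close together, whereas the colonized pools were spread and their lowest, replicate 1, lay nearest to the germ-free range. Means were 373 ± 66.1 in colonized and 225 ± 11.9 in germ-free pools (SD, n = 3 each) (log2 change 0.65 ± 0.13 SE, adjusted p = 0.0344). The call was lost without colonized replicate 2 (adjusted p = 0.199), colonized replicate 3 (0.111), germ-free replicate 1 (0.0858) or germ-free replicate 2 (0.0949). The log2 change was still 0.546 or more without each of them. The adenylosuccinate lyase gene adsl, whose enzyme acts on the product of the paics enzyme, lay on the other side. It had 251, 255 and 290.1 in colonized pools, against 340.3, 326 and 336 in germ-free pools; all colonized pools were below all germ-free pools, but the change was not called (log2 change -0.30 ± 0.10 SE, adjusted p = 0.195). The atic probeset, for the enzyme that closes the purine ring, ranged over 80.1, 113 and 153 in colonized pools, against 111, 79.7 and 108 in germ-free pools, and gart was dim, at 29.01 in colonized and 34.4 in germ-free pools; the log2 changes of both, 0.14 ± 0.17 SE and -0.11 ± 0.10 SE, were not called. Of the purine members, paics was thus the only one that passed the test with all arrays.

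Of 17 further genes of purine and pyrimidine metabolism 1 was called higher and 0 lower. It was uox, the urate oxidase of purine breakdown, at 742, 666 and 923 in colonized pools, against 427, 417 and 377 in germ-free pools (log2 change 0.87 ± 0.12 SE, adjusted p = 0.00548). It was called on leaving out any 1 array (adjusted p 0.0054 to 0.0321). The other 16 genes were not called. At an unadjusted p under 0.05, 2 of the 20 probesets were higher and 2 lower, and the median log2 change was -0.01. Of these, impdh2, cad, ppat, ak1 and gda were named after their values were seen. The impdh2 gene, for the inosine monophosphate dehydrogenase of guanine nucleotide synthesis, had 109, 123 and 131 in colonized pools, against 143, 143 and 179 in germ-free pools (-0.29 ± 0.11 SE, adjusted p = 0.296). The cad gene, whose enzyme starts pyrimidine synthesis, had 91.1, 76.7 and 92.9 in colonized pools, against 116, 107 and 106 in germ-free pools (-0.26 ± 0.10 SE, adjusted p = 0.276) on its dimmer probeset, and -0.01 with overlapping groups on its brighter one. Values lay above the germ-free pools in all colonized pools for the amidotransferase ppat of the first step of purine synthesis (0.19, adjusted p = 0.427), the adenylate kinase ak1 (0.25, adjusted p = 0.142) and, on 1 of 2 probesets, the guanine deaminase gda (0.27, adjusted p = 0.381). Markers of proliferating cells, which need nucleotides, were not called: 0 of 13 passed, 0 had an unadjusted p under 0.05, and their summed intensity was 1749.6 to 2409 in the colonized and 1943 to 2365 in the germ-free pools. Any relation of these markers to the purine genes was not tested.

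Of 7 genes grouped under aromatic amino acids, the relatives fahd2a and hpdl included, 0 were called. At an unadjusted p under 0.05, 2 probesets were higher, those of hgd and of fahd2a. The homogentisate dioxygenase gene hgd, which acts in tyrosine breakdown, came nearest to a call of all members that missed it. It had 814, 825 and 824 in colonized pools, against 633, 635 and 589 in germ-free pools. Both groups were tight and well apart, and the log2 change was 0.39 ± 0.08 SE, adjusted p = 0.0517. With 16 added before log2, on probesets with a mean intensity of at least 100, without the intensity trend or with array weights it was called, at adjusted p-values of 0.0482, 0.048, 0.0485 and 0.0202. The other settings with all arrays gave 0.0536 to 0.121, the highest after quantile normalization. In all, hgd was called in 4 of 17 alternatives. Leaving out any 1 array gave 0.0635 to 0.249. The other measured steps of the tyrosine route were not called: the aminotransferase tat had a log2 change of 0.23 ± 0.13 SE, hpda 0.08 ± 0.10 SE and the last enzyme, fah, 0.09 ± 0.09 SE. The groups overlapped for tat and hpda, whereas for fah all colonized pools lay above all germ-free pools. All 4 measured steps were above 0 with all arrays, as were 55.2% of all tested probesets. They stayed above 0 in every setting tried, but these settings refit the same arrays and several leave the log2 change as it is. Adjusted p-values were 0.0517 for hgd and 0.489 to 0.781 for the others. The tryptophan dioxygenase tdo2a had 213, 225 and 264 in colonized pools, against 219, 210.5 and 238 in germ-free pools (0.06). The relatives fahd2a and hpdl were not called, and the larger fahd2a change was 0.26, without overlap (adjusted p = 0.307). Of 4 other measured genes of this pathway 0 were called and 0 had an unadjusted p under 0.05.

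Of 12 genes of transamination, glutamate, glutamine and asparagine metabolism, the relatives got1l1 and asnsd1 included, 0 were called. At an unadjusted p under 0.05, 4 probesets were higher and 1, that of got1l1, was lower. Those higher were glutamine synthetases, which bind ammonia to glutamate, and glutamate dehydrogenases, which release or bind it. The glutamine synthetase glulb had 1239, 1281 and 1284 in colonized pools, against 973, 883 and 1044 in germ-free pools (log2 change 0.38 ± 0.09 SE, adjusted p = 0.0636). Its paralog glula had 1631, 1635 and 1587 in colonized pools, against 1318, 1164 and 1417 in germ-free pools (0.31 ± 0.09 SE, adjusted p = 0.133). In both, the colonized pools were close together and above all germ-free pools, of which replicate 3 was the highest. The dehydrogenase glud1b had 2586, 2395 and 2544 in colonized pools, against 2096, 2199 and 1988 in germ-free pools (0.26 ± 0.07 SE, adjusted p = 0.131). Its paralog glud1a had 357, 307 and 451 in colonized pools, against 299, 272 and 286 in germ-free pools (0.33 ± 0.13 SE, adjusted p = 0.309). Colonized pools lay above germ-free pools on 4 of the 5 probesets of these genes; the exception was a dimmer glulb probeset (0.11). Over all tested probesets this held in 12.5%. Both these genes and the aspartate aminotransferases described next were grouped after their values were seen. Without germ-free replicate 3, glulb and glula were called (adjusted p = 0.0231 and 0.045). With all arrays, array weights also gave calls of both (adjusted p = 0.0175 and 0.0439), and quantile normalization of glulb (0.0443). In all, glulb was called in 3 of 17 alternatives and glula in 2 of 17. Calls over all tested probesets rose as well, from 263 to 410 without germ-free replicate 3 and to 569 with array weights.

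The aspartate aminotransferase genes were not called either. Log2 changes were -0.23 ± 0.10 SE for the cytosolic got1, -0.20 ± 0.16 SE and -0.13 ± 0.08 SE for the mitochondrial got2a and got2b, and -0.24 ± 0.09 SE for the dim relative got1l1. In 3 of these 4 every colonized pool lay below every germ-free pool, as in got1, with 717, 624 and 793 in colonized pools, against 810.0, 823 and 869 in germ-free pools; this held in 7.08% of all tested probesets. Adjusted p-values were 0.317 to 0.647. In every setting tried, each measured probeset of this family was below 0 and each of the glutamine synthetases and glutamate dehydrogenases above 0. The settings refit the same arrays, and several leave the log2 changes as they are, so this is no independent result. The difference between these families was not tested. The alanine aminotransferase gpt had log2 changes of 0.29 and 0.14, with overlapping groups. The gpt2 gene was dim, at 15.6 in colonized and 23.3 in germ-free pools, with all colonized pools below all germ-free pools. The asparagine synthetase asns had 0.10 and -0.001 and overlapped on both probesets. Its relative asnsd1 had 0.17. Both other measured genes of this group were not called.

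**Figure D4:**
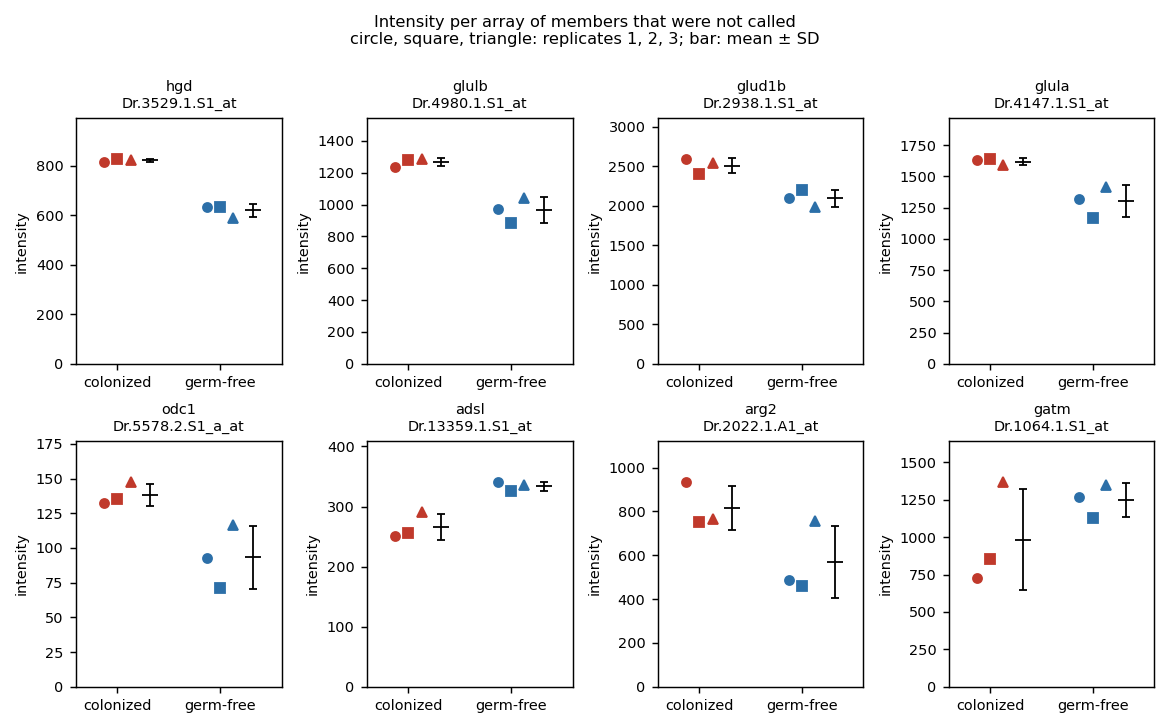
Intensity (vertical axes, linear scale from 0) in each array of 8 member probesets that were not called, colonized pools on the left and germ-free pools on the right of each panel, with symbols for replicates 1 to 3 and bars for the mean ± SD. The groups are apart for hgd, glulb, glud1b, glula, odc1 and adsl, while arg2 overlaps through germ-free replicate 3 and gatm through colonized replicate 3.

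Of 7 genes of the urea cycle, arginine, polyamines and creatine 0 were called. The ornithine decarboxylase gene odc1, which starts polyamine synthesis, had 132, 135 and 147 in colonized pools, against 92.6, 71.2 and 116 in germ-free pools (log2 change 0.46 ± 0.13 SE, adjusted p = 0.141). The mitochondrial arginase arg2, which makes ornithine from arginine, had 933, 751 and 763 in colonized pools, against 486, 461 and 758 in germ-free pools (0.53 ± 0.17 SE, adjusted p = 0.202). In both, germ-free replicate 3 stood above the other germ-free pools, and for arg2 it lay within the colonized range. Without that array odc1 and arg2 were called, with log2 changes of 0.59 and 0.74 and adjusted p-values of 0.0181 and 0.00461. Both were also called with all arrays and array weights, and each thus in 2 of 17 alternatives. As given above, calls over all tested probesets rose in these settings too. The amidinotransferase gatm, which starts creatine synthesis, had 729.7, 856 and 1366 in colonized pools, against 1270.1, 1128 and 1348 in germ-free pools (-0.38 ± 0.19 SE, adjusted p = 0.43). Here colonized replicate 3 stood apart from the other colonized pools and above all germ-free ones; without it gatm was called lower (-0.64, adjusted p = 0.033). The methyltransferase gamt, which completes creatine, averaged 1957 ± 170.4 in colonized and 1911 ± 70.1 in germ-free pools (SD, n = 3 each), with a log2 change of 0.03 ± 0.08 SE that turned below 0 after quantile normalization. The urea cycle genes ass1 and asl had log2 changes of -0.18 ± 0.10 SE and 0.06 ± 0.10 SE, and aldh4a1 of proline breakdown 0.20 ± 0.11 SE. For ass1 all colonized pools lay below all germ-free pools (adjusted p = 0.484), and the groups of asl and aldh4a1 overlapped. Of 12 further genes of these pathways 0 were called. The polyamine acetyltransferase gene sat1a.2 came nearest, with 759.5, 742 and 792 in colonized pools, against 628, 603 and 539 in germ-free pools on 1 probeset (0.36 ± 0.09 SE, adjusted p = 0.104) and 0.47 on the other, both without overlap; it was named after its values were seen.

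Neither the folate enzymes nor those of branched-chain amino acids were called, and in none of these 6 genes were the groups apart. The trifunctional folate enzyme mthfd1b had 246, 244 and 319 in colonized pools, against 264, 189 and 262 in germ-free pools (log2 change 0.16 ± 0.14 SE, adjusted p = 0.674). The mitochondrial mthfd2 had 0.003 ± 0.12 SE. Among the branched-chain enzymes, the aminotransferases bcat1 and bcat2 had 0.05 ± 0.09 SE and 0.12 ± 0.12 SE, and the dehydrogenase subunits bckdha and bckdhb -0.12 ± 0.11 SE and 0.24 ± 0.12 SE, so that the paired subunits of 1 enzyme lay on both sides of 0. Of 6 further folate genes and 13 of branched-chain and lysine breakdown 0 were called, with 3 probesets higher and 1 lower at an unadjusted p under 0.05.

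Over the wider lists of these pathways and of the amino acid response, 81 of 141 listed genes were measured on 109 probesets. Of these genes 3 were called higher and 0 lower, or 2.75% of the probesets, beside 1.28% and 0.413% of all tested probesets. At an unadjusted p under 0.05, 14 of the 109 probesets were higher and 3 lower, beside 8.54% and 4.68% of all tested probesets. The lists were chosen with earlier results of these data known, so their shares are no independent result. The genes called were uox, sqor and cebpb, a transcription factor gene of the liver and of inflammation, at 636 ± 51.4 in colonized and 308 ± 91.8 in germ-free pools (SD, n = 3 each) (log2 change 1.00 ± 0.17 SE, adjusted p = 0.013). The call of cebpb was lost without colonized replicate 1 or 2 or germ-free replicate 1 (adjusted p = 0.0819, 0.0874 and 0.0598). Of 13 measured genes of the amino acid response, a set that cells turn on when amino acids are short, the other 12 were not called. They include atf3 (0.39 ± 0.09 SE, adjusted p = 0.0809), the glutathione-degrading chac1 (0.44 ± 0.14 SE, adjusted p = 0.194) and the transporter heavy chain slc3a2b (0.51 ± 0.15 SE, adjusted p = 0.154), without overlap between the groups. A second, dim chac1 probeset overlapped (0.02), and the transporter gene slc38a2 (-0.21, adjusted p = 0.488) and the transcription factor gene atf4b (-0.17, adjusted p = 0.636) lay below 0 with overlap. These genes were named after their values were seen. The classical target asns, as given above, was not called on either probeset.

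**Figure D5:**
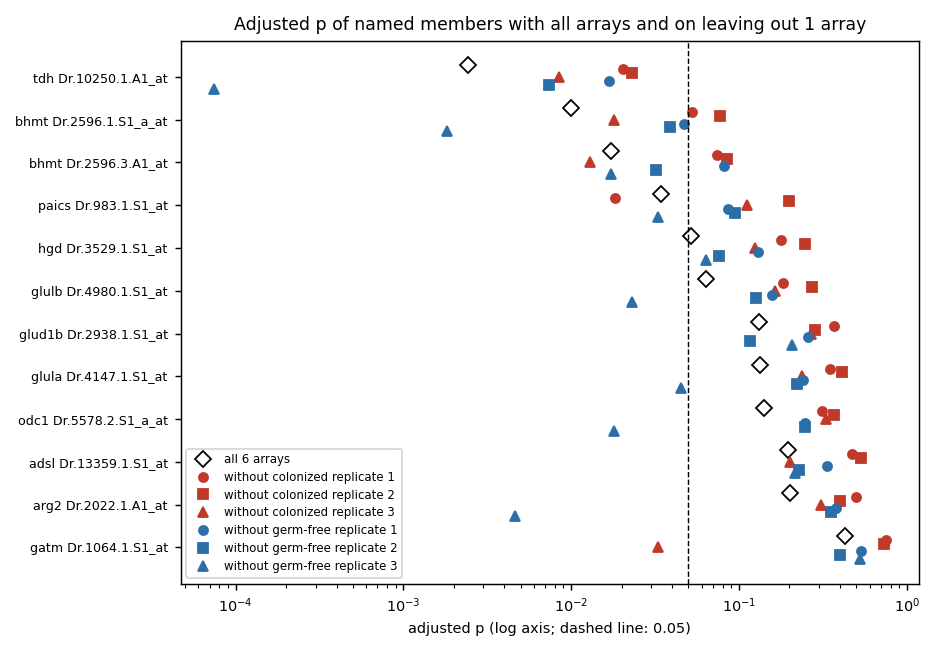
Adjusted p from the limma fit (horizontal log axis, dashed line at 0.05) of 12 member probesets with all 6 arrays (open diamonds) and on leaving out each array in turn (filled symbols, by group and replicate). Every value of tdh lies below 0.05, those of bhmt and paics lie on both sides, and glulb, glula, odc1 and arg2 pass only without germ-free replicate 3 and gatm only without colonized replicate 3.

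Markers of some cell types also differed between the groups. Markers of hepatocytes, the cells that make many of these enzymes, had a summed intensity of 18087 to 22086 in the colonized and 14821 to 15970.3 in the germ-free pools over 9 measured genes. Of the 9, 2 were called higher, 7 were not called, and 0 were at 0. The called genes were tfa, at 3421 in colonized and 1922 in germ-free pools, and serpina1l, at 2825 and 1662. They carry much of the difference between the summed intensities. In the bright markers apoa2, fabp10a and rbp4, colonized replicate 1 lay below germ-free replicate 1 (5213 against 5275, 2517 against 2531, and 3422 against 3548). The defining marker fabp10a had 2860.4 in colonized and 2424 in germ-free pools (0.22 ± 0.12 SE, adjusted p = 0.467). Both ambp and itih2 lay higher in all colonized pools but were not called. The ambp gene had 365 in colonized and 241 in germ-free pools (0.52 ± 0.14 SE, adjusted p = 0.131). Values of itih2 were 218 and 153 (0.41 ± 0.15 SE, adjusted p = 0.269). The fetuin gene ahsg1 lay lower in all colonized pools, at 148 in colonized and 247 in germ-free pools (-0.64 ± 0.18 SE, adjusted p = 0.132). The retinol-binding protein gene rbp4 had 3663 in colonized and 3659 in germ-free pools. The groups overlapped for apoa2 (0.17) and on both hnf4a probesets (0.12 and 0.03). Of the 9 genes, 5 had an unadjusted p under 0.05, ahsg1 among them. The part of this in the values of tdh, bhmt and hgd was not tested. Neutrophil and macrophage markers were called higher in 7 of 10 genes, with sums of 1922 to 2351 in the colonized and 703 to 778 in the germ-free pools, and 0 at 0. Enterocyte markers were called lower in 3 and higher in 1 of 9 genes, with sums of 6288 to 7223 in the colonized and 7978 to 9146 in the germ-free pools, and 0 at 0. Erythrocyte markers were called higher in 2 of 7 genes, with sums of 5569.8 to 9046 in the colonized and 1262 to 4040.3 in the germ-free pools, and 0 at 0. Sums for exocrine pancreas, skeletal muscle and neural markers overlapped between the groups, with 1 of 9, 0 of 12 and 1 of 11 genes called, each lower. The part of these cell types in the members' changes was not tested either.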

How the data were processed

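Total RNA of each pool (12 ug) was turned into biotin-labelled cRNA and 20 ug was hybridised to a 1-colour Affymetrix array, per the labels' protocols. The values the authors deposited are linear intensities. According to the design text they were normalized in dChip by the invariant set method and summarised per probeset with the PM-MM model, so a shift shared by most genes would be removed. No pair of arrays shared a value (0 identical). Of 15617 probesets, 115 controls were left out. Gene symbols are those of an older platform annotation and were checked by Entrez identifier against GRCz12tu names (10711 of 10795 single-symbol probesets found; 0 members renamed).

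Intensities were analysed as log2(intensity + 32) with limma 3.58.1 in R 4.3.3 (group as the only term, moderated variances with an intensity trend, two-sided, Benjamini-Hochberg over 15502 probesets, no filter on dim probesets). The fit was tested on simulated data. The number of arrays limits the precision. No explanation was tested, and no set test was run.

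Members, pathway lists and marker lists were chosen with earlier results of these data known. Named by rule were tdh, paics, every called member and every member with an unadjusted p under 0.05. Of the rest, the rule named the 3 brightest (ahcy, gamt, gatm) and the 3 with the largest change (gatm, gpt, mat1a). Called genes of the wider lists were named as well. Other members and genes of the wider lists in the text were named outside this rule. Of cell type lists only genes with an exact symbol match were used. A gene of the wider lists counted as called if any of its probesets was; marker counts and sums use 1 probeset per gene, that with the highest mean on the log2 scale. Alternatives were 16 or 100 added, quantile normalization, median centring, mean intensities of at least 50 or 100, other variance models, array weights, the replicate number as a block, 1 probeset per gene, leaving out each array, and, chosen after seeing the data, leaving out the 3 genes that are no enzymes.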

Additional observations from a re-analysis of the deposited data

How the results depend on the processing

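With 3 pools per group, the counts moved with the variance model and with single arrays. Members called higher numbered 4 with all arrays, 9 with array weights, 0 without moderated variances, and 1 to 8 on leaving out 1 array (2 without colonized replicate 1, 1 without colonized replicate 2, and, of the germ-free arrays, 2 without replicate 1 and 8 without replicate 3). Members called lower numbered 0 to 1 on leaving out 1 array, the 1 being gatm without colonized replicate 3. Genes of the wider lists called higher numbered 3 with all arrays, 6 with array weights, 0 without moderation, and 1 to 7 on leaving out 1 array; called lower they numbered 0 throughout. All probesets called numbered 263, with 569, 5 and 114 to 410 in the same settings. The median log2 change of the members was 0.12 and ranged from 0.07 to 0.14 over the alternatives, while that of all tested probesets stayed within -0.01 to 0.03. All 4 called members were called with 16 or 100 added, median centring, either filter on dim probesets, no intensity trend, robust moderation and array weights; after quantile normalization 3 of the 4 were. Without moderation tdh had an adjusted p of 0.2 and the others 0.233 to 0.286. The change of gamt was 0.031 with all arrays, -0.0865 after quantile normalization and -0.025 to 0.0984 on leaving out 1 array, below 0 without colonized replicate 3. Both groups share replicate numbers. Deviations of same-numbered pools from their group means correlated at -0.0841, 0.0971 and 0.0693, and those of differently numbered pools at -0.164 to 0.0946. Deviations from a mean of 3 pools are tied to each other, so these values cannot tell whether the pools were paired. With the replicate block 4 members were called higher and 0 lower, and 274 probesets in all; sqor was not called (adjusted p = 0.0648). The cause of these shifts was not tested.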
